A study of Homo sapiens with 6 samples.

Results

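PARP9, PARP10, PARP12, PARP14, DTX3L, SAMD9, SAMD9L, DDX60, XAF1 and EPSTI1 are 10 of the 26899 genes with a row in the deposited count table. They were taken by symbol, and the list had been chosen by its measured difference between the libraries labelled knockdown and control, so the values of that comparison are given below as a description and not as a test. 10 of 10 symbols were found, and 9 of them carried enough reads to enter the fit across all genes. 4 of the genes (PARP9, PARP10, PARP12 and PARP14) encode members of the PARP family, enzymes or enzyme-like proteins that handle ADP-ribose taken from NAD+. DTX3L encodes a ubiquitin ligase that forms a complex with PARP9. SAMD9 and SAMD9L encode a pair of related antiviral proteins that restrain growth, DDX60 a helicase that acts with the RNA sensor RIG-I, XAF1 a partner and antagonist of the apoptosis inhibitor XIAP, and EPSTI1 a protein first known from epithelial cells in contact with stroma.

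All of these genes are known as interferon-responsive. Type I and type III interferons bind receptors whose kinases set off assembly of the complex ISGF3, which holds STAT2 and IRF9 and binds the interferon-stimulated response element (ISRE) in promoters. Interferon gamma acts through a separate element, the gamma-activated site (GAS). Tubular epithelium can both produce interferons and answer them, and the PARP9 and DTX3L pair is known to strengthen that answer.

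The series consists of 6 RNA-seq libraries of HK-2 and addresses the loss of ANXA2, which encodes the membrane-binding protein annexin A2. HK-2 is an established human line of proximal tubule origin that carries genes of human papillomavirus. The control group held 3 libraries, called wild type in their titles and shCtrl in their descriptions, so the labels do not settle whether a control hairpin was given. The knockdown group held 3 libraries, called ANXA2 knockdown and shANXA2. Cells of this line were transfected with plasmid by Lipofectamine, the medium held serum, no interferon or virus is named in the labels, and neither the time after transfection nor the hairpin sequence is given there. Nothing in the labels says that the libraries of a group came from separate cultures, so p-values measure only the spread between these libraries, which may be technical.

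The libraries held 24231267 to 34561675 counted reads. ANXA2 itself (ENSG00000182718.16) measured 803.5 ± 53.2 FPKM (SD, n = 3) in the control libraries and 766.4 ± 7.06 FPKM (SD, n = 3) in the knockdown libraries. Its log2 fold change was -0.05 (SE 0.075, edgeR adjusted p = 0.848), so its level did not separate the groups, and knockdown below is the name of a label. Of 15299 genes tested by edgeR, 0 passed an adjusted p of 0.05, the smallest adjusted p was 0.131, and 1251 had an unadjusted p under 0.05. DESeq2 called 31 genes and limma-voom called 0. Defining transport markers of the proximal tubule were near 0 (LRP2 with 1 read over all libraries, AQP1 with 4 reads), whereas PAX8 measured 477 and 557 CPM, GGT1 230 and 248 CPM, KRT8 1099 and 1223 CPM and KRT7 160 and 233 CPM in the control and knockdown groups (groups overlapping for each). CDH1, on the same list of epithelial markers as KRT8 and KRT7, had 9 control and 33 knockdown reads and was not tested. Of 15 leukocyte markers 8 had no row in the table, PTPRC and CD3E among them, and the summed level of the list ran from 3.55 to 6.07 CPM in the control and from 4.26 to 7.30 CPM in the knockdown libraries; its part in the values below was not tested. Within that list CD14 measured 1.99 and 2.83 CPM and CD68 1.66 and 2.19 CPM, with overlapping groups. In bulk RNA, a higher level per cell and a higher share of cells expressing a gene cannot be told apart.

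The promoter sequences are shown first. The genes were taken by symbol and not by sequence, but they were listed as interferon-linked, a property known to go with the ISRE, so the shares below are a description of that choice and not independent of it. RefSeq promoter windows on GRCh38.p14, each from 250 bases before to 50 bases after a start site, were at hand for 9 of the 10 genes. PARP10 had no window and was not searched. PARP9 and XAF1 had 2 windows each, which gave 11 windows. They were searched on both strands for the core of the ISRE, written as GAAA, any 2 bases and GAAA. The core was present in 7 of the 11 windows (63.6%), which belong to 7 genes, against 1255 of 35116 windows in the whole RefSeq table (3.57%) and 2.92% of the windows of tested genes. The 8 matches are printed below 5′ to 3′ on the strand of the gene, with 10 bases on each side and the core in capitals, because they let the spacing and the bases around the core be compared.
PARP9: gggcgcaaagTTTCAGTTTCgcttccctgg
DTX3L: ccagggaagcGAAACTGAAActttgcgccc
PARP14: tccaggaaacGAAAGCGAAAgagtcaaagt
PARP12: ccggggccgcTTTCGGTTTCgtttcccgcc
SAMD9: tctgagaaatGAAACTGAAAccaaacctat
DDX60, distal: gtgctgaaggGAAACTGAAAcctaagtgct
DDX60, proximal: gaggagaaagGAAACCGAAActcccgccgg
EPSTI1: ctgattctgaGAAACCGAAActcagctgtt
PARP9 and DTX3L shared a single core at chr3:122564332-122564341 (GRCh38), read on opposite strands. It spans the DTX3L start from position -6 and begins 41 bases before the PARP9 start of the window that holds it. The other PARP9 window (chr3:122564735-122565034) belongs to another start, and the core lies after that start. The PARP14 core lay at chr3:122680810-122680819 on the plus strand, the SAMD9 core at chr7:93118106-93118115 on the minus strand and the EPSTI1 core at chr13:42992282-42992291 on the minus strand. DDX60 held 2 cores, at chr4:168318831-168318840 and chr4:168318796-168318805, both on the minus strand. In PARP12 the core at chr7:140062952-140062961 read on the strand opposite to the gene and ended at the base before the start. The first base of a core lay between 136 bases before the start (SAMD9) and 6 bases before it (DTX3L).

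A longer form, the core followed by CT, was present in 4 of the 11 windows, those of PARP9, DTX3L, DDX60 and EPSTI1, against 0.273% of all windows. The GAS core, written as TTC, any 3 bases and GAA, was present in 3 windows (27.3%), those of PARP14, DDX60 and EPSTI1, against 7.66% of all windows. In EPSTI1 the GAS match at chr13:42992289-42992297 overlapped the ISRE core by 3 bases, and in PARP14 the GAS match at chr3:122680799-122680807 was separated from it by 2 bases. The windows of SAMD9L and XAF1 held neither set of letters, which says nothing about whether a factor binds there. 3 whole windows are printed below 5′ to 3′ on the gene's strand with ISRE cores in capitals. That of DTX3L (chr3:122564088-122564387, plus strand) holds the core shared with PARP9, and 137 of its bases also lie in the PARP9 window with the core. That of EPSTI1 (chr13:42992192-42992491, minus strand) is from the gene with the largest fold difference. That of SAMD9L (chr7:93148336-93148635, minus strand) is a window without a core.
DTX3L: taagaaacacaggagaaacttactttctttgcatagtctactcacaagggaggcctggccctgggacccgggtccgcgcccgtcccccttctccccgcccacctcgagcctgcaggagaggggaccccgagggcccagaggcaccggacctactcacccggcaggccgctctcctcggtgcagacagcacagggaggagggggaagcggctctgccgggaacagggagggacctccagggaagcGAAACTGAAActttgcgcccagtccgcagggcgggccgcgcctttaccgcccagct
EPSTI1: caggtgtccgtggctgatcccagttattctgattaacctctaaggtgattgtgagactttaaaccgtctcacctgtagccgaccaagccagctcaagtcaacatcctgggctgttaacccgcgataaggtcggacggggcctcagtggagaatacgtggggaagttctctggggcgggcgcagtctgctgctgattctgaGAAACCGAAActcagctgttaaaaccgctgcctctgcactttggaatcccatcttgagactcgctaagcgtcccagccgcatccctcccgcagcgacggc
SAMD9L: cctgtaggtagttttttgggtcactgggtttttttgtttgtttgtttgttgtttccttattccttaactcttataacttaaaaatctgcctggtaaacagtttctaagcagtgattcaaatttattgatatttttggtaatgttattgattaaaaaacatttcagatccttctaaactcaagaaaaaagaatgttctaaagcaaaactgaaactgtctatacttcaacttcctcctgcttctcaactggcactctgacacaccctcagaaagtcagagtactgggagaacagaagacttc
The windows differed in base composition. GC content was 71.3% in PARP12, 70.3% in the PARP9 window with the core and 48.3% in the other PARP9 window, 66.3% in DTX3L, 64.7% in PARP14, 55.7% in EPSTI1, 49.7% in DDX60, 39.7% in SAMD9, 34.3% in SAMD9L, and 57% and 49% in the XAF1 windows, and the SAMD9L window held 0 CpG dinucleotides. The lower and upper quartiles of all RefSeq windows were 47% and 68% GC, so SAMD9 and SAMD9L lay below the lower one, and PARP12 and the PARP9 window with the core above the upper one.

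**Figure D1:**
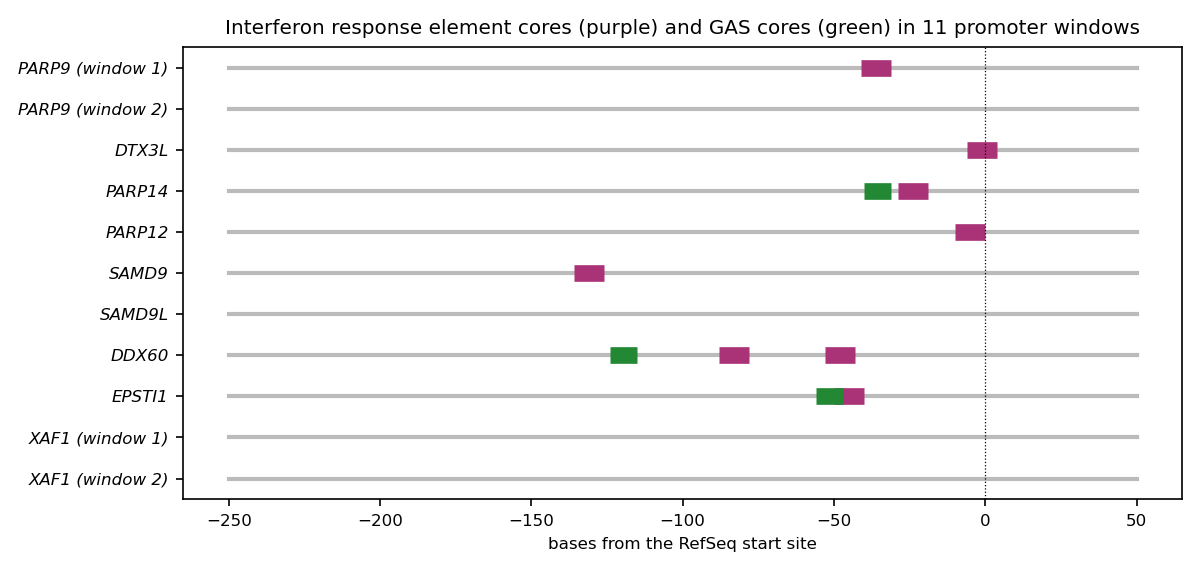
Positions of the ISRE core (purple) and the GAS core (green) in the 11 RefSeq promoter windows of 9 genes, with bases from the start site on the horizontal axis and 1 grey line per window. 7 windows hold an ISRE core, all of them beginning between 136 and 6 bases before the start, and the windows of SAMD9L and XAF1 hold none. PARP10 had no window and is not shown.

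In order to describe the 10 genes in the libraries, reads per gene were compared between the groups, and FPKM values, which divide by transcript length and by library depth, were used to compare levels between genes. All 9 genes that entered the fit had an estimate above 0, meaning higher in the knockdown libraries, with a median log2 fold change of 0.78 (range 0.21 to 1.79) beside a median of -0.0065 over all 15299 genes. 0 of the 9 passed an adjusted p of 0.05 in the edgeR fit (adjusted p 0.583 to 0.738), where 0% of all genes passed. 5 of the 9 had an unadjusted p under 0.05 with knockdown higher, beside 3.86% of all genes. In 5 of the 9 (DDX60, EPSTI1, PARP10, PARP12 and SAMD9L) every knockdown library lay above every control library on TMM-scaled CPM, beside 7.94% of all genes. These counts repeat the choice of the genes, so nothing about them is read from the comparison with the background. The count of 5 became 8 without knockdown replicate 2, where 13.2% of all genes were so separated, 7 without control replicate 1 (16.2% of all genes) and 7 without control replicate 2 (10.7%). All 9 passed the low-count filter with at least 10 reads in every library (lowest 14), so none of them passed through the knockdown group alone.

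**Figure D2:**
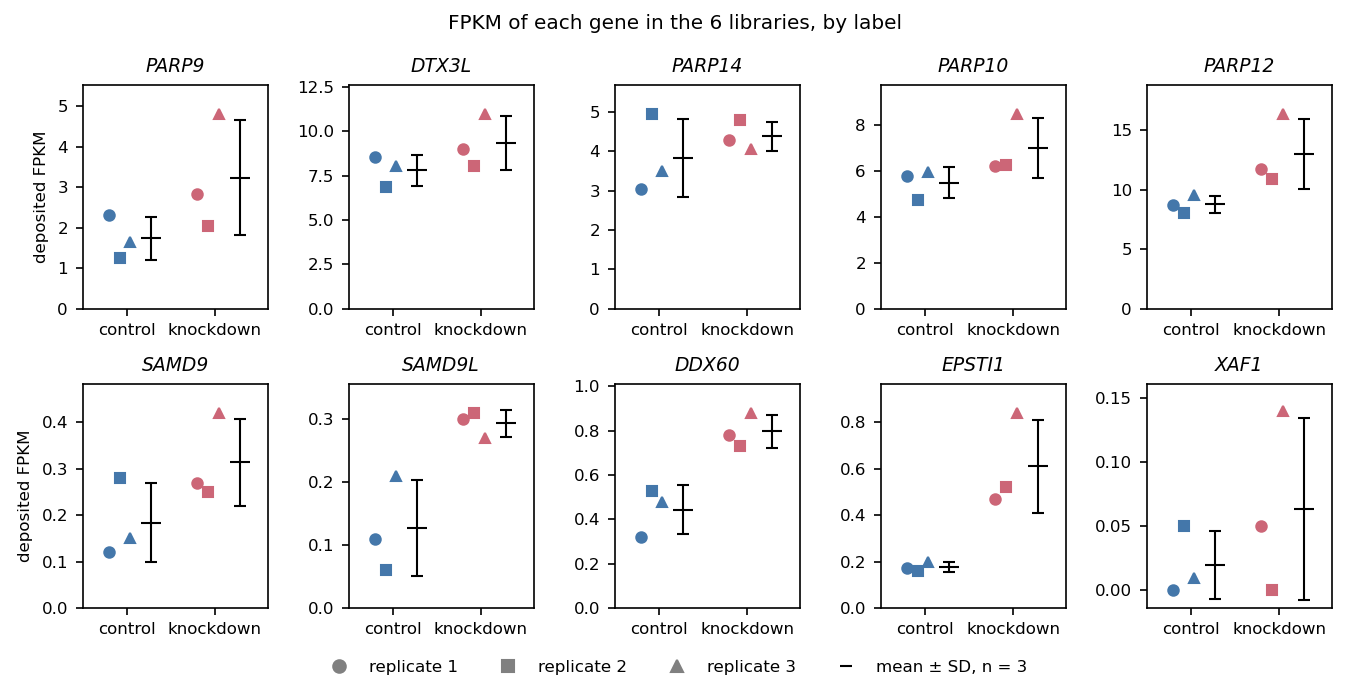
Deposited FPKM of the 10 genes (vertical axes, 1 panel per gene, each with its own scale) in the 3 control and 3 knockdown libraries, with the marker shape giving the replicate and the black bars the mean ± SD (n = 3). Knockdown replicate 3 is the highest knockdown library in 8 of the 10 panels, and DDX60, EPSTI1, PARP10, PARP12 and SAMD9L show no overlap between groups.

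PARP9 and DTX3L lie head to head on chromosome 3. In GENCODE release 44 on GRCh38, PARP9 occupies chr3:122527924-122564577 on the minus strand and DTX3L chr3:122564338-122575203 on the plus strand, and the gene models share 240 bases at their starts. PARP14 lies 105.6 kb beyond the end of DTX3L at chr3:122680839-122730840 on the plus strand. Exons of PARP9 and DTX3L overlap over 139 bases on opposite strands (1.56% of PARP9 and 2.41% of DTX3L exon bases), and the strand setting of the read counting was not given in the sources used here.

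PARP9 (ENSG00000138496.16) encodes a macrodomain protein known chiefly as the partner of DTX3L. It measured 2.31, 1.26 and 1.66 FPKM in control replicates 1, 2 and 3 and 2.84, 2.05 and 4.82 FPKM in knockdown replicates 1, 2 and 3. Control replicate 1 lay above knockdown replicate 2, so the groups overlapped, and knockdown replicate 3 stood well above the other 5 libraries. The means were 1.74 ± 0.53 and 3.24 ± 1.43 FPKM (SD, n = 3), and the log2 fold change was 0.90 (SE 0.314). The gene was not short of reads, with 1234 control and 2529 knockdown reads. Counting error at its mean count was 3.99%, whereas the coefficient of variation between libraries was 31.3% in the control and 43.2% in the knockdown group. Without knockdown replicate 3 the log2 fold change was 0.51, and without control replicate 1 it was 1.16.

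DTX3L (ENSG00000163840.9), the ubiquitin ligase of the pair, measured 8.55, 6.85 and 8.02 FPKM in the control libraries and 9.02, 8.03 and 10.99 FPKM in the knockdown libraries. Knockdown replicate 2 lay within the control range, and knockdown replicate 3 was again the highest. The means were 7.81 ± 0.870 and 9.35 ± 1.51 FPKM (SD, n = 3), with a log2 fold change of 0.27 (SE 0.141). Leaving out knockdown replicate 3 gave 0.15, and leaving out control replicate 2 gave 0.18. In both genes control replicate 1 was the highest control and control replicate 2 the lowest, so the pair ranked the 6 libraries alike within each group. The ratio of PARP9 to DTX3L in FPKM was 0.22 ± 0.0446 (SD, n = 3; range 0.184 to 0.27) in the control and 0.336 ± 0.0935 (SD, n = 3; range 0.255 to 0.439) in the knockdown libraries, and these ranges overlapped.

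PARP14 (ENSG00000173193.13), a large mono-ADP-ribosyltransferase with macrodomains that is known as a cofactor of STAT6, stood apart from its neighbours. It measured 3.04, 4.96 and 3.51 FPKM in the control libraries and 4.28, 4.8 and 4.07 FPKM in the knockdown libraries. The highest of the 6 libraries was control replicate 2, the library in which PARP9 and DTX3L were lowest, and knockdown replicate 3 was the lowest of its group. The means were 3.84 ± 1.00 and 4.38 ± 0.376 FPKM (SD, n = 3). The log2 fold change was 0.21 (SE 0.174), being 0.07 when control replicate 1 was left out and 0.43 when control replicate 2 was left out.

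The tested genes nearest to these 3 genes had negative estimates. KPNA1, which encodes a nuclear import adaptor and lies 13.0 kb from the end of PARP9, had a log2 fold change of -0.26 (SE 0.121, edgeR adjusted p = 0.610), with every knockdown library below every control library. PARP15, between DTX3L and PARP14, had -0.57 (SE 0.643, edgeR adjusted p = 0.811) at a mean of 0.505 CPM. HSPBAP1, 9.16 kb beyond PARP14, had -0.50 (SE 0.257, edgeR adjusted p = 0.631). Farther out, beyond KPNA1, FAM162A had 0.36 (SE 0.142, edgeR adjusted p = 0.605) and CCDC58 0.20 (SE 0.119, edgeR adjusted p = 0.653). Around all 10 genes, the nearest tested genes within 500 kb (at most 2 on each side) came to 22. Of these 22 neighbours 0 passed an adjusted p of 0.05, 9 had an estimate above 0, and their median log2 fold change was -0.15 (range -0.57 to 0.60).

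**Figure D3:**
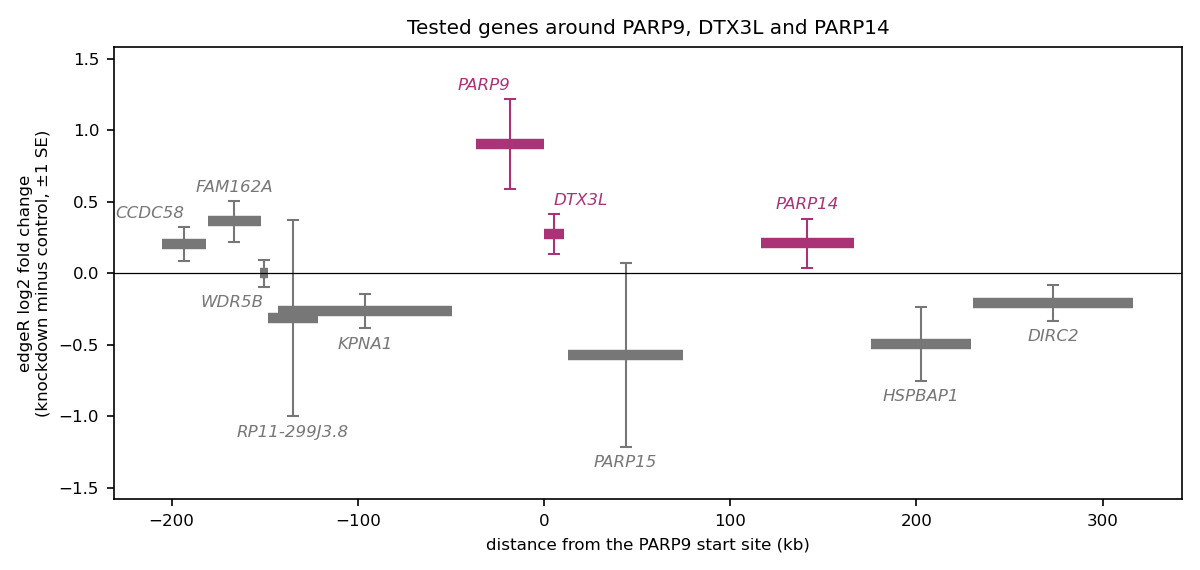
edgeR log2 fold change (vertical axis, knockdown minus control, bars 1 SE) of the tested genes within 150 kb of PARP9, DTX3L and PARP14, drawn as bars over their extent with distance from the PARP9 start in kb on the horizontal axis. PARP9 at 0.90, DTX3L at 0.27 and PARP14 at 0.21 lie above 0, and PARP15 between them lies at -0.57 with an SE of 0.643.

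PARP12 and PARP10 are mono-ADP-ribosyltransferases at other sites. PARP12 (ENSG00000059378.12), a zinc finger protein that blocks replication of several RNA viruses, lies at chr7:140023749-140062951 on the minus strand. It measured 8.73, 8.06 and 9.5 FPKM in the control libraries and 11.69, 10.91 and 16.36 FPKM in the knockdown libraries. The lowest knockdown library lay above the highest control library, and the control libraries were close together. The means were 8.76 ± 0.721 and 13.0 ± 2.95 FPKM (SD, n = 3), with a log2 fold change of 0.58 (SE 0.159). The value was 0.39 without knockdown replicate 3.

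PARP10 (ENSG00000178685.13), which adds single ADP-ribose units to its targets, lies on chromosome 8 from 143977153 to 144012772 on the minus strand. It measured 5.77, 4.71 and 5.94 FPKM in the control libraries and 6.22, 6.24 and 8.47 FPKM in the knockdown libraries. The groups were separated, but knockdown replicates 1 and 2 lay close above the highest control. The means were 5.47 ± 0.667 and 6.98 ± 1.29 FPKM (SD, n = 3), the log2 fold change was 0.36 (SE 0.162), and it was 0.21 without knockdown replicate 3. Of its exon bases 8.64% lie opposite exons of GRINA or SPATC1. GRINA was the more abundant gene on the CPM scale (mean of 237.9 against 23.98 for PARP10), and its log2 fold change was 0.32 (SE 0.117, edgeR adjusted p = 0.602). Whether reads of GRINA entered the count of PARP10 was not tested.

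SAMD9 (ENSG00000205413.7) and SAMD9L (ENSG00000177409.11) are neighbours on chromosome 7, at 93099513 to 93118023 and 93130056 to 93148385, both on the minus strand and 12.03 kb apart. Inherited changes that overactivate either protein are known to impair blood formation, and both proteins limit poxvirus replication. Their transcripts shared 0 windows of 50 identical bases. Alignment with mismatches was not examined, so this does not settle whether reads of either gene were counted for the other. Both genes were rare in HK-2.

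SAMD9 had 22, 65 and 34 reads in the control libraries and 68, 61 and 88 reads in the knockdown libraries, equal to 0.12, 0.28 and 0.15 FPKM and to 0.27, 0.25 and 0.42 FPKM. Control replicate 2 lay above knockdown replicate 2 on FPKM and on CPM, so the groups overlapped, and it lay level with knockdown replicate 1. The means were 0.183 ± 0.085 and 0.313 ± 0.0929 FPKM (SD, n = 3), and the log2 fold change was 0.78 (SE 0.396), with 1.19 when control replicate 2 was left out and 0.52 when knockdown replicate 3 was left out.

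SAMD9L had 21, 15 and 50 reads in the control libraries and 79, 77 and 59 reads in the knockdown libraries, equal to 0.11, 0.06 and 0.21 FPKM and to 0.3, 0.31 and 0.27 FPKM. The groups did not overlap, and the spread lay in the controls, where control replicate 3 held the most reads. The means were 0.127 ± 0.0764 and 0.293 ± 0.0208 FPKM (SD, n = 3), with a log2 fold change of 1.19 (SE 0.449). Leaving out control replicate 2 gave 0.84, and leaving out control replicate 3 gave 1.77. Within the pair the libraries did not rank alike: control replicate 2 was the highest control for SAMD9 and the lowest for SAMD9L, and knockdown replicate 3 was the highest knockdown for SAMD9 and the lowest for SAMD9L. The ratio of SAMD9 to SAMD9L in FPKM ran from 0.714 to 4.67 in the control and from 0.806 to 1.56 in the knockdown libraries.

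DDX60 (ENSG00000137628.16, chr4:168216291-168318883, minus strand) encodes a helicase that binds viral RNA and promotes signalling by RIG-I. It had 51, 109 and 95 reads in the control libraries and 172, 157 and 162 reads in the knockdown libraries. In FPKM these were 0.32, 0.53 and 0.48 against 0.78, 0.73 and 0.88. No library of one group entered the range of the other, and knockdown replicates lay close together. The means were 0.443 ± 0.11 and 0.797 ± 0.0764 FPKM (SD, n = 3), with a log2 fold change of 0.86 (SE 0.244) that stayed between 0.69 and 0.99 when any 1 library was left out. Of the 17658 windows of 50 bases in DDX60 transcripts 42 (0.238%) were also present in its neighbour DDX60L.

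EPSTI1 (ENSG00000133106.14, chr13:42886388-42992271, minus strand) showed the largest fold difference of the 9 tested genes, although it carried few reads. It had 14, 17 and 21 reads in the control libraries and 54, 58 and 81 reads in the knockdown libraries. In FPKM these were 0.17, 0.16 and 0.2 against 0.47, 0.52 and 0.84. The control libraries were within 0.04 FPKM of each other, and every knockdown library lay above them. The means were 0.177 ± 0.0208 and 0.61 ± 0.201 FPKM (SD, n = 3). The log2 fold change was 1.79 (SE 0.396), a 3.45-fold difference on the linear scale, and leaving out knockdown replicate 3 gave 1.497.

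XAF1 (ENSG00000132530.16, chr17:6755447-6775647, plus strand) carried the fewest reads of the 10 genes. It had 0, 6 and 1 reads in the control libraries and 6, 0 and 15 reads in the knockdown libraries, and 15 of its 21 knockdown reads came from knockdown replicate 3. It did not pass the low-count filter and was not tested. The ratio of knockdown to control reads corrected for depth was 2.76, with an exact 95% interval of 1.13 to 7.68 that covers counting error only and leaves out the spread between libraries. In an edgeR fit without the filter the log2 fold change was 1.57 (SE 1.34, adjusted p = 0.759). Of its exon bases 38.3% lie opposite the gene PRAL, and the strand of these reads was not examined, since the tables hold no reads by strand.

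The levels of the 10 genes spanned a wide range. In the control libraries the order by mean FPKM was PARP12 (8.76), DTX3L (7.81), PARP10 (5.47), PARP14 (3.84), PARP9 (1.74), DDX60 (0.443), SAMD9 (0.183), EPSTI1 (0.177), SAMD9L (0.127) and XAF1 (0.02). Ranges over the 3 control libraries overlapped for the neighbours PARP12 and DTX3L, PARP10 and PARP14, SAMD9 and EPSTI1, and EPSTI1 and SAMD9L. The other neighbours in this order did not overlap. The ADP-ribose genes and DTX3L were thus the more abundant members, and the genes with the largest log2 fold changes (EPSTI1 and SAMD9L) were among the rarest.

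The mean level of the listed genes in each library was then described. The genes were listed by their difference between the groups, so the step from control to knockdown in this mean repeats that choice. Each correlation below rests in part on that step and is not read as a shared pattern. The mean of the centred log2 CPM values of the 9 tested genes was -0.43, -0.46 and -0.26 in control replicates 1, 2 and 3 and 0.29, 0.22 and 0.64 in knockdown replicates 1, 2 and 3. Knockdown replicate 3 thus carried the highest value, and 8 of the 10 genes had their highest knockdown value in it, with PARP14 and SAMD9L as the exceptions. Without it the median log2 fold change of the 9 genes was 0.51. Pearson's r of a single gene with this mean, over the 6 libraries and with the gene itself in the mean, was highest for EPSTI1 (0.993) and PARP12 (0.969), between 0.755 and 0.899 for DDX60, PARP10, PARP9, SAMD9L, DTX3L and SAMD9, and 0.319 for PARP14.

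Among 13214 other genes with a mean of at least 1 CPM, the 10 with the highest r to this mean were TRIM25 (0.996), NUAK2 (0.993), PHLDA3 (0.991), BST2 (0.990), IFI44L (0.989), IFI27 (0.989), SERPINB9P1 (0.986), PMF1 (0.986), RHBDD3 (0.986) and ISG15 (0.984). Each r rests on 6 libraries that fall into 2 groups, and the 10 were picked as the highest of all, so they are given as a description. TRIM25, a ubiquitin ligase that activates RIG-I, measured 88.1, 90.2 and 100.7 CPM in the control and 124.4, 119.8 and 146.2 CPM in the knockdown libraries. ISG15, a ubiquitin-like protein, measured 15.3, 12.4 and 15.5 CPM in the control and 40.8, 29.0 and 59.8 CPM in the knockdown libraries. In both genes knockdown replicate 3 was the highest library and the groups did not overlap. Both traits are those of the mean to which the genes were matched, so they follow from the pick. BST2 (the viral tether tetherin), IFI44L and IFI27 are also known as interferon-responsive. For NUAK2, PHLDA3, SERPINB9P1, PMF1 and RHBDD3 no such response is claimed here, so the 10 are not read as an interferon set.

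Related genes of the same pathways were examined as lists. The 13 other PARP enzymes were all tested, 0 passed an adjusted p of 0.05, 7 had an estimate above 0, and their median log2 fold change was 0.04 (range -0.57 to 0.30). Among them PARP6 measured 29.6 ± 0.806 CPM in the control and 36.4 ± 2.36 CPM in the knockdown group (SD, n = 3), a log2 fold change of 0.30 (SE 0.107, edgeR adjusted p = 0.599). TNKS2, a tankyrase that builds ADP-ribose chains, measured 25.7 ± 2.42 and 18.9 ± 4.09 CPM (SD, n = 3), a log2 fold change of -0.44 (SE 0.172, edgeR adjusted p = 0.605). Every knockdown library lay above every control library for PARP6 and below every control library for TNKS2. The median of this list was near that of all genes. The 4 interferon-linked PARP genes had estimates of 0.21 to 0.90, but they were listed by this comparison, so nothing is read from the difference. PARP6 at 0.30 lay above PARP14 at 0.21.

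Of 8 enzymes that remove ADP-ribose 7 were tested and 0 passed, with a median log2 fold change of 0.10. The hydrolases MACROD1 and ADPRH had log2 fold changes of 0.54 (SE 0.195, edgeR adjusted p = 0.599) and 0.46 (SE 0.243, edgeR adjusted p = 0.634). Of 4 other Deltex ligases 3 were tested and 0 passed, with a median of 0.17. DTX4 measured 9.16 ± 0.344 CPM in the control and 11.9 ± 0.465 CPM in the knockdown group (SD, n = 3). Every knockdown library lay above every control library, and the log2 fold change of DTX4 was 0.37 (SE 0.143, edgeR adjusted p = 0.605). DTX2 had a log2 fold change of 0.17 (SE 0.170, edgeR adjusted p = 0.791).

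The RIG-I-like helicases and their adaptors, the pathway in which DDX60 acts, were examined next. All 7 genes of this list were tested, 0 passed an adjusted p of 0.05, 6 had an estimate above 0, and their median log2 fold change was 0.42. DHX58 measured 2.37 ± 0.942 CPM in the control and 6.29 ± 1.63 CPM in the knockdown group (SD, n = 3), with a log2 fold change of 1.40 (SE 0.328, edgeR adjusted p = 0.599). IFIH1, the sensor MDA5, measured 4.23 ± 0.107 and 10.7 ± 1.75 CPM (SD, n = 3), with a log2 fold change of 1.34 (SE 0.185, edgeR adjusted p = 0.156). The adaptor MAVS had -0.17 (SE 0.0899, edgeR adjusted p = 0.631), with every knockdown library below every control library. Of the 7 genes, 5 were separated with knockdown higher, beside 7.94% of all tested genes. The list was written with earlier results of these data known, so this count is a description. On the side of XAF1 and XIAP, of 13 genes of the inhibitor of apoptosis family and its partners 0 passed, 4 had an estimate above 0, and their median was -0.09. BIRC3 had 0.52 (SE 0.636, edgeR adjusted p = 0.829) and NAIP -0.39 (SE 0.476, edgeR adjusted p = 0.827).

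The receptor subunits, kinases and ISGF3 subunits that carry the interferon signal to the ISRE had a median near 0. Of 7 genes 6 were tested and 0 passed, with a median log2 fold change of -0.0076. STAT2 measured 16.0 ± 2.39 CPM in the control and 22.3 ± 4.33 CPM in the knockdown group (SD, n = 3). Every knockdown library lay above every control library, as in 7.94% of all tested genes. The log2 fold change of STAT2 was 0.48 (SE 0.177, edgeR adjusted p = 0.605). IFNAR2, a receptor subunit, had 0.19 (SE 0.224, edgeR adjusted p = 0.825). IRF9, the DNA-binding partner in ISGF3, had 1 control read and 4 knockdown reads and was not tested. Of 22 interferon genes 5 had a row and 0 were tested, and all 22 together held 0, 17 and 7 reads in the control and 11, 11 and 5 reads in the knockdown libraries.

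**Figure D4:**
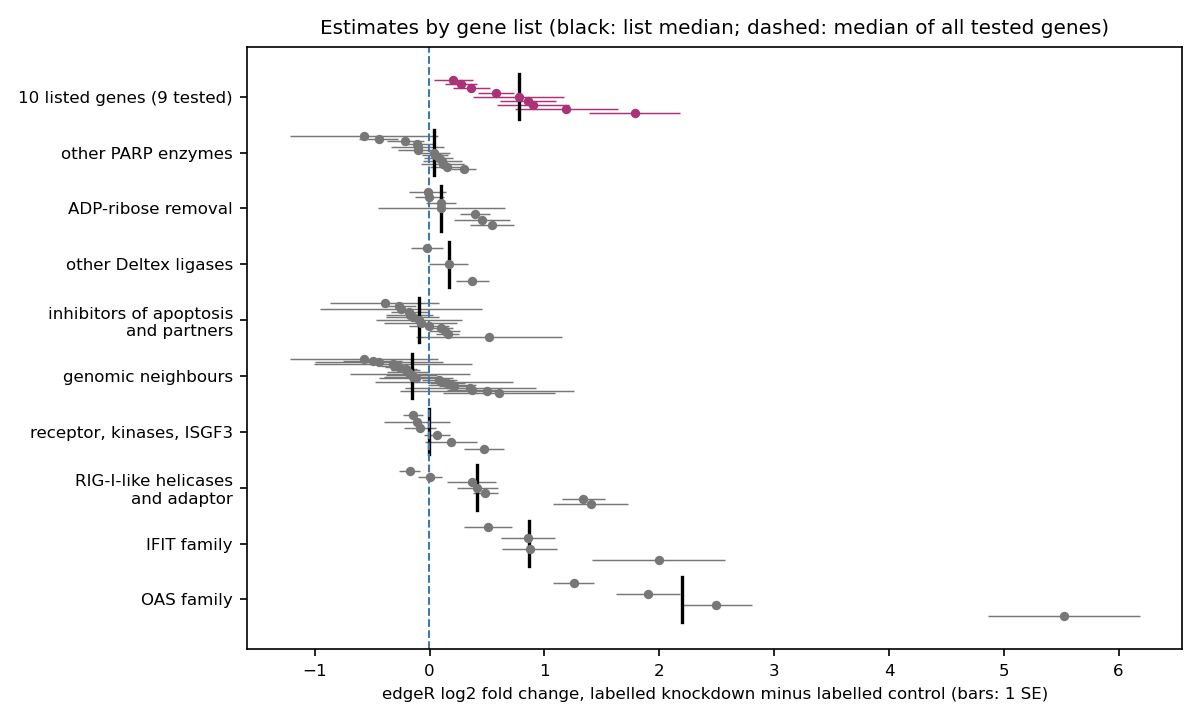
edgeR log2 fold change of each tested gene (horizontal axis, knockdown minus control, bars 1 SE) for the 9 tested genes of the list (purple) and for related lists and genomic neighbours (grey), with black lines at list medians and a dashed line at the median of all tested genes. The 9 genes have a median of 0.78, above the 13 other PARP enzymes at 0.04 and below the 4 tested OAS genes at 2.20, both given without a test. The 9 were listed by this difference, and OAS2 could pass the low-count filter only through the knockdown group.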

How the data were processed

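Polyadenylated RNA of 3 control and 3 knockdown HK-2 libraries was grouped by the sample titles. The authors deposited raw read counts per gene, not normalised, and FPKM values rounded by them. The submitters' processing notes name bcl2fastq, TopHat2, edgeR and GRCh38, while versions, counting program and strand setting were not given in the sources used here. The supplied paper describes another experiment.

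Counts as deposited entered edgeR 4.0.16 (R 4.3.3), whose quasi-likelihood test was run two-sided on all 6 libraries without covariates, with TMM scaling, filterByExpr defaults (minimum count 10, total 15) and Benjamini-Hochberg adjustment over 15299 genes with a threshold of 0.05. CPM is scaled by TMM. The code was tested on simulated data. Libraries held 24231267 to 34561675 counted reads. Replicates differed beyond sampling noise (chi-square per degree of freedom 9.64 to 49.7). 26125 gene IDs were found in GENCODE release 44. Alternatives were other scalings, no filter, DESeq2 1.42.0, limma 3.58.1 on counts or on log2 FPKM with a pseudocount of 1 or 0.1, a replicate block and leaving out each library.

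The genes and all lists were chosen with earlier results of these data known, and the OAS and IFIT families were added after the data were seen. Named were the 10 genes, ANXA2, the 2 members of each list with the largest absolute change at a mean of at least 1 CPM, tested neighbours, and the 10 genes nearest in pattern. Other genes named (LRP2, AQP1, CDH1, PTPRC, CD3E, MAVS, IRF9 and single interferon genes) were chosen after their values were seen. 1 gene of the interferon signalling list is not reported singly here. No paper value was used.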

Additional observations from a re-analysis of the deposited data

How the results depend on the processing

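The 9 estimates kept their sign under every alternative run, and 132 of the values so obtained stayed on the same side of the adjusted p of 0.05. The other 3 came from edgeR without a low-count filter, which called 165 genes and 3 of the 10 listed genes (PARP9 with adjusted p = 6.28e-05, PARP12 with 0.0102 and EPSTI1 with 0.0413); the cause was not tested. DESeq2 called 31 genes. Leaving out each library in turn gave 0 to 4 genes, with 4 without knockdown replicate 2, a median log2 fold change of the listed genes of 0.51 (without knockdown replicate 3) to 0.91 (without knockdown replicate 2), and 5 to 8 listed genes with separated groups, while 10.2% to 16.2% of all genes were so separated. That median was 0.29 on log2(FPKM + 1) and 0.56 on log2(FPKM + 0.1), where a pseudocount compresses the fold changes of low genes by construction. With the core followed by CT, 4 promoter windows matched in place of 7.

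The replicate numbers were checked for pairing, and deviations of same-numbered libraries correlated at -0.06, 0.12 and -0.20. No strong shared effect of the number was seen, but 3 libraries per group cannot settle whether the libraries were paired. With a replicate block 0 genes and 0 listed genes passed, and the median was 0.83. At 7 and 21 reads XAF1 is limited by depth, and SAMD9, SAMD9L and EPSTI1 carried counting errors of 13.3% to 15.6% at their mean count.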

Other observations

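2 other interferon-responsive families, added after the data were seen, were also described. The OAS genes encode or resemble enzymes that make the RNase L activator from double-stranded RNA. OAS2 had 11 reads in the control and 566 reads in the knockdown group, with a log2 fold change of 5.52 (SE 0.661, edgeR adjusted p = 0.131), and OASL had 2.50 (SE 0.308, edgeR adjusted p = 0.131). The 4 OAS genes had a median of 2.20 (range 1.26 to 5.52). All 4 were separated between groups with knockdown higher, beside 7.94% of all tested genes, and 0 of them passed an adjusted p of 0.05. With 11 control reads, OAS2 could pass the low-count filter only through the knockdown group. Its separation and its estimate are therefore not read as a result. In the IFIT family, whose proteins bind viral RNA, 4 of 5 genes were tested and 0 passed, with a median log2 fold change of 0.86 (range 0.51 to 1.99) beside 0.78 for the listed genes. IFIT1 measured 2.57 ± 1.65 CPM in the control and 10.1 ± 7.51 CPM in the knockdown group (SD, n = 3), and its groups overlapped. IFIT5 had a log2 fold change of 0.87 (SE 0.238, edgeR adjusted p = 0.599). Of the 4 tested IFIT genes 2, IFIT5 among them, were separated with knockdown higher, beside 7.94% of all tested genes.

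Reads of the interferon genes were few in every library. IFNB1 had 0, 0 and 0 reads in the control and 1, 3 and 0 reads in the knockdown libraries. IFNL3 had 0, 0 and 2 against 0, 7 and 4 reads, and IFNL4 had 0, 16 and 5 against 6, 1 and 1 reads. Knockdown replicate 3 held 5 interferon reads in all. Whether interferon had a part in the values of the listed genes was not tested.

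The summed level of fibroblast and endothelial markers ran from 29.7 to 38.002 CPM in the control and from 30.6 to 31.6 CPM in the knockdown libraries. LUM, the most abundant of those named, had a log2 fold change of -0.17 (SE 0.130, edgeR adjusted p = 0.723), and COL1A1 had -0.13 (SE 0.327, edgeR adjusted p = 0.923).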
